A study of Homo sapiens with 18 samples.

Results

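The transcripts of 9 apolipoproteins and of MTTP, the microsomal triglyceride transfer protein, were followed in RNA-seq libraries of Hep3B cells, a human hepatoma line. The 10 genes were chosen by name, as APOA1, APOA2, APOA4, APOA5, APOB, APOC3, APOE, APOH, APOM and MTTP, from a table of 36684 gene symbols, and all 10 were among the 14557 that passed a filter on low counts and were tested. The study asked how fucoxanthin (FUCO), a carotenoid of brown algae, changes a cell model of fatty liver made by loading hepatoma cells with free fatty acids (FFA). The 6 groups held 3 libraries each. Con received no FFA, Model received FFA alone, FUCO-0.5, FUCO-1 and FUCO-2 received FFA with FUCO at 0.5, 1 or 2 μM, and RES received FFA with Resmetirom, an agonist of thyroid hormone receptor β. All groups but Con thus carry the fatty acid load. The FFA concentration, the times of treatment and the RES dose are not given for these libraries in the sources used here, and the cells are a single tumour line. Cultures were described as biological replicates, so p-values measure the spread between cultures of this line.

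Apolipoproteins are the protein part of lipoproteins, the particles that carry lipid in plasma, and most of them are made in liver. APOB is the structural protein of very low density lipoprotein (VLDL), and MTTP loads it with triglyceride in the endoplasmic reticulum so that the particle can be secreted. APOA1 and APOA2 are the main proteins of high density lipoprotein (HDL), while APOE, APOC3 and APOA5 move between particles and set how fast triglyceride is hydrolysed and remnants are cleared.

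APOA5 (chr11:116789367-116792420), APOA4 (chr11:116820700-116823304), APOC3 (chr11:116829907-116833072) and APOA1 (chr11:116835751-116837622) lie within 48.3 kb of each other on GRCh38.p14, with APOC3 on the plus strand and the other 3 on the minus strand. The remaining genes stand apart, APOA2 at chr1:161222292-161223628, APOB at chr2:21001429-21044073, MTTP at chr4:99564130-99623997, APOM at chr6:31652404-31658210, APOH at chr17:66212033-66229415 and APOE at chr19:44905796-44909393. APOA1 overlaps the antisense gene APOA1-AS and APOM overlaps BAG6 at its outermost start, and without a stated strand setting their reads cannot be told apart.

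Upstream sequence is shown for 3 genes whose tests differed with RES, APOA5 and APOH, which fell, and APOA2, which was not called. Each line gives the 250 bases before the outermost RefSeq start on GRCh38.p14, written 5′ to 3′ on the gene's own minus strand. The windows are chr11:116792421-116792670 for APOA5, chr17:66229416-66229665 for APOH and chr1:161223629-161223878 for APOA2. Capitals mark matches to 6 motifs searched on both strands, CAAAGTCCA (core of an HNF4 site), GTTAAT (a motif of many liver promoters), TATAAA (the TATA box), CCAAT (a site of the factor NF-Y), AGGTCA (recognition hexamer of many nuclear receptors) and CACGTG (E-box). A match on the other strand appears as the reverse complement of these letters.

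APOA5: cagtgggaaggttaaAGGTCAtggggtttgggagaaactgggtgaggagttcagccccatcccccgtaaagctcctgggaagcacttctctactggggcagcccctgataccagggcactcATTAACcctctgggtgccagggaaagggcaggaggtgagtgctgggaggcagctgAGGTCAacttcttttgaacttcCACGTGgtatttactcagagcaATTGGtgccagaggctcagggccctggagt
APOH: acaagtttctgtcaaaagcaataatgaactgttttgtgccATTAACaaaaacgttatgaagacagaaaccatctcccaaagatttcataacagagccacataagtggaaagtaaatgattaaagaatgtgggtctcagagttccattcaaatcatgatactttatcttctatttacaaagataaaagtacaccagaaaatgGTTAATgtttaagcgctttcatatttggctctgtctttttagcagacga
APOA2: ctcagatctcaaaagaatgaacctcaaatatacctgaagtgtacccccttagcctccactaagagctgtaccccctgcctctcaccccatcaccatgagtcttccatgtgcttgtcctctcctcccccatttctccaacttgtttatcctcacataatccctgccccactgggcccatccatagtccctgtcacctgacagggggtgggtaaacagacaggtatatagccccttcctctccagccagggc

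The APOA5 window held AGGTCA from 235 to 230 and again from 74 to 69 bases before the start, with GTTAAT from 129 to 124, CACGTG from 52 to 47 and CCAAT from 30 to 26, and none of these overlapped another. This window precedes the longer RefSeq transcript, and the start of the GENCODE canonical transcript lies further downstream at position 116791879. The APOH window held GTTAAT from 210 to 205 and again from 49 to 44 bases before the start. The APOA2 window held none of the 6. Neither did the window of APOM, which was called lower with RES, nor that of APOA4, which was not called. Over 35116 windows of this length, the share with a match was 0.325% for CAAAGTCCA, 6.23% for GTTAAT, 10.7% for TATAAA, 32.0% for CCAAT, 12.1% for AGGTCA and 6.34% for CACGTG. The windows of APOE, MTTP and APOM held no GTTAAT, nor did the APOA5 window before the canonical start. That APOA5 window held AGGTCA from 156 to 151 bases before its start. The MTTP window before the canonical start held AGGTCA from 50 to 45 bases before it, on the other strand. CCAAT lay in windows of APOE and MTTP, and TATAAA in the same MTTP window. A match describes letters and is not a binding site. Of the 10 genes, 7 had a window in the table used, and APOA1, APOB and APOC3 did not.

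Libraries held between 16916688 and 23083498 counts. Levels are given as CPM, the count of a gene relative to the size of its library after TMM scaling, and comparisons used edgeR's quasi-likelihood test with p-values adjusted by Benjamini-Hochberg over all 14557 genes. A gene was called at an adjusted p under 0.05, and the study's stricter DEG rule adds an absolute log2 fold change over 1. No pair of replicates agreed within sampling noise, with chi-square values per degree of freedom from 2.29 to 19.2. Con replicate 1 stood apart from Con replicates 2 and 3 (15.3 and 13.1 against 2.29 between those), as did FUCO-2 replicate 1 from the other FUCO-2 libraries (19.2 and 18.4 against 5.68), FUCO-0.5 replicate 2 (10.4 and 17.8 against 5.81) and FUCO-1 replicate 3 (9.96 and 10.9 against 4.5) from those of their groups. The 10 hepatocyte markers, which include ALB, TTR, SERPINA1, TF, AHSG, FGB, HNF4A, CPS1 and ASGR1, were all expressed. Their sum was 59100 to 66500 CPM in Con, 48500 to 49100 in Model, 40100 to 50300 in FUCO-0.5, 43200 to 46400 in FUCO-1, 33700 to 37000 in FUCO-2 and 14000 to 14600 in RES. With RES the sum was thus lower than in Model, as were most of the 10 transcripts followed here. Single markers did not all follow the sum, and FGB rose with RES (log2 fold change 0.42 ± 0.11, adjusted p = 0.00224). The endothelial markers summed to between 0.325 and 2.46 CPM, with CDH5, KDR, CLEC4G and EMCN at 0 in all 18 libraries, and the stellate and fibroblast markers to between 12.9 and 38.3 CPM, with ACTA2 and COL3A1 at 0. Immune cell markers summed to 5.52 to 7.51 CPM in Con and 14.5 to 22.8 elsewhere, with MARCO at 0 and 6 of 8 under 1 CPM throughout. Cholangiocyte markers summed to 872 to 1150 CPM, and enterocyte markers to 557 to 694 CPM outside RES and 316 to 358 in RES, with ALPI at 0. Mitochondrial transcripts took 5.28% to 8.58% of counts, with FUCO-0.5 replicate 2 the highest. In bulk libraries, fewer cells of a kind and less RNA per cell cannot be told apart.

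The 10 transcripts made up 1.66% ± 0.048 of all counts in Con (SD, n = 3), 1.44% ± 0.0445 in Model, 1.38% ± 0.0792, 1.45% ± 0.0358 and 1.26% ± 0.0505 with rising FUCO, and 1.14% ± 0.0248 in RES. Compared per kilobase of transcript, APOA2 was the most abundant in Con at 11881 ± 561 CPM per kb. It was followed by APOE at 2190 ± 143, APOH at 1318 ± 66.4, APOA1 at 1138 ± 115 and APOB at 473 ± 16.2 CPM per kb. APOM (48.9 ± 8.16), APOC3 (47.1 ± 11.3) and MTTP (40.1 ± 5.80 CPM per kb) overlapped each other, and the libraries of APOH and APOA1 overlapped as well. APOA5 (0.547 ± 0.356) and APOA4 (0.194 ± 0.247) were at the bottom and overlapped. In RES the order changed below APOE, with APOB at 245 ± 19.2, APOH at 237 ± 8.81 and APOA1 at 163 ± 25.2 CPM per kb. There the libraries of APOB and APOH overlapped and APOA1 lay below both. APOA4, which is mainly an intestinal apolipoprotein, had between 0 and 13 counts in each library. For that reason only its counts and calls are given below, although its fold changes enter the medians of the 10 genes.

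**Figure D1:**
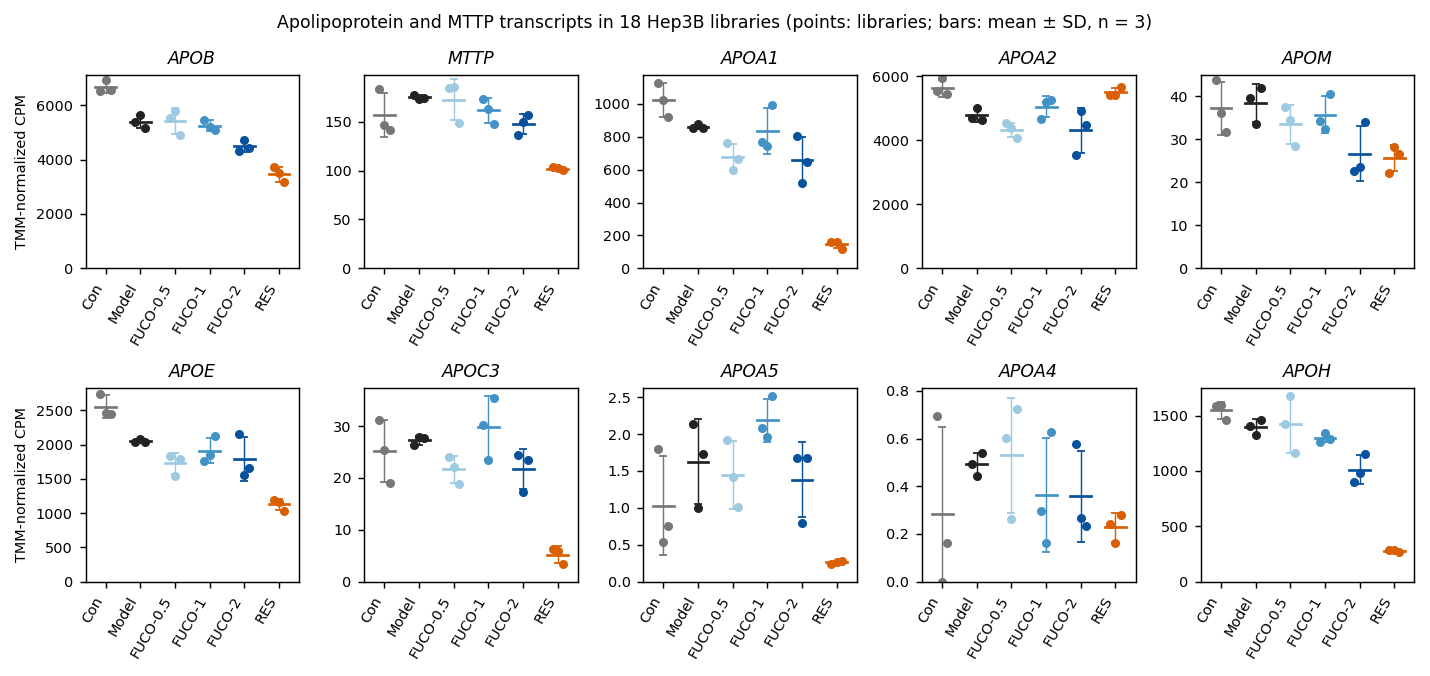
Normalized CPM (linear axes from 0) of the 10 transcripts in each of 18 libraries, with points for libraries and bars for the mean ± SD of 3. The RES libraries lie below every other library for APOB, MTTP, APOA1, APOE, APOC3, APOA5 and APOH, while APOA2 with RES lies between 5403 and 5663 CPM and overlaps Con.

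The first comparison asked what the fatty acid load did. Of the 10 genes, APOB and APOE fell modestly and none rose, so 2 of 10 were called lower against 9.12% of all genes tested. APOB was at 6526, 6944 and 6575 CPM in Con and at 5371, 5656 and 5179 CPM in Model. The groups did not overlap, and APOB fell to 80.8% of Con (log2 fold change −0.31 ± 0.078, SE, adjusted p = 0.00729). APOE, the ligand for remnant uptake by the LDL receptor family, was at 2745, 2467 and 2448 CPM in Con and at 2034, 2083 and 2037 CPM in Model. These did not overlap either, and the log2 fold change was −0.32 ± 0.10 (adjusted p = 0.0304). The APOB call held without each library in turn. The APOE call was lost without Con replicate 1, Con replicate 2 or any one Model library (adjusted p from 0.0525 to 0.0894), and without normalization factors (0.0793). Its adjusted p ran from 0.000597 to 0.0894 over the alternatives.

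The other transcripts did not pass the test. APOA1 was at 1128, 1021 and 921 CPM in Con and at 850, 876 and 856 CPM in Model, and APOA2 at 5527, 5934 and 5434 CPM in Con and at 4683, 5004 and 4638 CPM in Model. All Model libraries lay below all Con libraries for both HDL proteins, with log2 fold changes of −0.25 ± 0.13 (adjusted p = 0.205) and −0.24 ± 0.091 (adjusted p = 0.074). Both were called lower in a fit of the 2 groups only (0.0241 and 0.0108) and without the filter (0.0141 and 0.0135). APOA2 was also called by DESeq2 (0.0438) and without FUCO-2 replicate 1 (0.0177) or 2 (0.0474), and the adjusted p ran from 0.0141 to 0.42 for APOA1 and from 0.0108 to 0.236 for APOA2 over their alternatives. APOH had a log2 fold change of −0.15 ± 0.099, APOC3 of 0.11 ± 0.17 and APOM of 0.05 ± 0.14, each with overlapping libraries. MTTP was at 183, 147 and 142 CPM in Con and at 178, 173 and 174 CPM in Model (log2 fold change 0.15 ± 0.092, adjusted p = 0.273). APOA5, an activator of lipoprotein lipase, had 31, 9 and 14 counts in Con and 39, 18 and 32 in Model (0.66 ± 0.36, adjusted p = 0.229). In both genes Con replicate 1 was the highest Con library and overlapped Model. Without it, MTTP (log2 fold change 0.28, adjusted p = 0.0271) and APOA5 (1.31, adjusted p = 0.0183) were called higher, as was APOA4, whose remaining Con libraries held 0 and 3 counts. Over the alternatives the adjusted p ran from 0.0271 to 0.674 for MTTP and from 0.0183 to 0.597 for APOA5. APOA4 had 12, 0 and 3 counts in Con and 9, 8 and 10 in Model.

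Genes of VLDL assembly other than APOB and MTTP were counted from the same test. Of 18 tested, 6 rose, against 8.43% of all genes, and 2 fell, against 9.12%. AADAC, an esterase of the endoplasmic reticulum, rose from 6.47 ± 1.81 to 13.1 ± 1.20 CPM (log2 fold change 1.02 ± 0.17, adjusted p = 0.000171), and TM6SF2, which is needed for the lipidation of VLDL, from 1.58 ± 0.245 to 3.05 ± 0.280 CPM (0.95 ± 0.22, adjusted p = 0.00298). TMEM41B (−0.25 ± 0.075) and SMLR1 (−0.40 ± 0.14), both linked to lipoprotein export, fell. Among 33 regulators of apolipoprotein genes, 2 rose and 13 fell, and the largest rise was that of CREB3L3, a transcription factor of hepatic triglyceride metabolism, at 1.80 ± 0.17 (adjusted p = 4.97e-08). RORA (−0.68 ± 0.15, adjusted p = 0.00182) and PPARGC1A (−0.66 ± 0.13, adjusted p = 0.0011) fell most. Of the 11 tested genes of HDL formation and plasma remodelling, ANGPTL4, an inhibitor of lipoprotein lipase, rose by 1.30 ± 0.31 on the log2 scale and 4 fell, with ANGPTL8 at −1.37 ± 0.14 and ABCA1, the exporter of lipid to APOA1, at −0.49 ± 0.086. The 20 other secreted hepatocyte proteins had 11 lower and 1 higher. Their median log2 fold change of −0.31 compares with −0.05 for the 10 genes and 0.001 for all genes. The median of the 10 includes APOA4 with its few counts, and without it the median was that of APOH (−0.15).

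FUCO was then compared with Model at each dose. These comparisons, like that of RES, share the Model libraries. At 0.5 μM none of the 10 was called by edgeR or DESeq2, against 1.45% of all genes called by edgeR in either direction. At an unadjusted p under 0.05, for which the share of all genes was not recorded, there were 2 of the 10. These were APOA1, at 760, 601 and 667 CPM (log2 fold change −0.35 ± 0.13, adjusted p = 0.267), and APOE, at 1834, 1549 and 1796 CPM (−0.25 ± 0.10, adjusted p = 0.313). All libraries of both lay below the Model libraries. APOA1 was called lower in a fit of these 2 groups only (adjusted p = 0.0146) and without the filter on low counts (0.00138), with a range of 0.00138 to 0.609 over its alternatives. At 1 μM, 0 of the 10 were called by either tool, against 3.21% of all genes called by edgeR, and 0 had an unadjusted p under 0.05. Leaving APOA4 aside, log2 fold changes there ran from −0.11 ± 0.092 for MTTP to 0.42 ± 0.32 for APOA5, whose libraries held 42, 36 and 44 counts. A missed threshold does not show that the levels were alike. The 1 μM libraries of APOA1, at 769, 742 and 996 CPM, spread on both sides of those of Model.

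At 2 μM, 4 of the 10 fell, namely APOB, APOA1, APOM and APOH, and none rose, against 9.71% of all genes called lower. APOB was at 4329, 4725 and 4413 CPM, all below Model, with a log2 fold change of −0.27 ± 0.078 (adjusted p = 0.0167). APOA1 was at 804, 517 and 647 CPM (−0.39 ± 0.13, adjusted p = 0.0365). Its libraries also lay below those of Model but spread widely. APOM, a carrier of sphingosine-1-phosphate on HDL, was at 22.6, 23.5 and 34.0 CPM against 39.7, 33.5 and 42.0 in Model (−0.53 ± 0.14, adjusted p = 0.0107). The highest FUCO-2 library overlapped the lowest Model library. APOH, or β2-glycoprotein I, a plasma protein that binds anionic phospholipid, was at 899, 983 and 1158 CPM against 1409, 1322 and 1461 in Model. These did not overlap, and APOH fell to 72.5% of Model (−0.46 ± 0.0997, adjusted p = 0.00173). None of the 4 fell by over 1 on the log2 scale.

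The APOH call held without each library in turn, while the other 3 depended on single libraries. APOB was not called without Model replicate 2 (adjusted p = 0.081, with a range of 0.00149 to 0.081 over the alternatives). APOM was not called without Model replicate 3, FUCO-2 replicate 1 or FUCO-2 replicate 2 (adjusted p from 0.0524 to 0.0646). APOA1 was not called without any one of the 3 Model libraries or FUCO-2 replicates 2 or 3 (adjusted p from 0.0773 to 0.223), nor by DESeq2 (0.0839) or without normalization factors (0.0697), and its adjusted p ran from 2.76e-05 to 0.223 over all alternatives. Its log2 fold change moved from −0.39 to −0.25 without FUCO-2 replicate 2. APOE was at 2161, 1564 and 1658 CPM (−0.19 ± 0.0999, adjusted p = 0.18) and was called lower only when FUCO-2 replicate 1, the library that stood apart, was left out (−0.35, adjusted p = 0.00723, with a range of 0.00723 to 0.561). MTTP was at 137, 149 and 157 CPM, below all Model libraries (−0.24 ± 0.092, adjusted p = 0.0622). It was called lower with 2 groups only (adjusted p = 0.0338), without the filter on low counts (0.0351), with a replicate block (0.0485) and without Con replicate 1 (0.0292) or FUCO-0.5 replicate 3 (0.0386), with a range of 0.0292 to 0.182 over the alternatives. APOC3 (−0.33 ± 0.17), APOA2 (−0.15 ± 0.091) and APOA5 (−0.25 ± 0.34) did not pass, and APOA4 had 10, 5 and 4 counts. Without the filter APOC3 was called lower as well (adjusted p = 0.0247, range 0.0247 to 0.552), which with MTTP makes 6 of the 10. The share of all genes called in that fit was not recorded.

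The step from 1 to 2 μM was tested directly. APOH fell between these doses, from 1262, 1340 and 1293 to 899, 983 and 1158 CPM (−0.36 ± 0.0996, adjusted p = 0.0313), and was the only one of the 10 called, against 2.23% of all genes lower. Its libraries did not overlap, although the call was lost without any one FUCO-1 library or FUCO-2 replicate 1 or 2 (adjusted p from 0.064 to 0.123). APOB (−0.23 ± 0.078, adjusted p = 0.0864) and APOM (−0.42 ± 0.14, adjusted p = 0.0812) were not called. APOM was called without FUCO-2 replicate 3, APOA1 without FUCO-2 replicate 1 and APOC3 without FUCO-1 replicate 2, at adjusted p of 0.00739, 0.0144 and 0.0479 (ranges 0.00111 to 0.311, 0.000491 to 0.498 and 0.000911 to 0.439). DESeq2 called APOB as well (0.0199, range 0.0199 to 0.229), and a fit without the filter on low counts called 6 of the 10 lower. No share of all genes was recorded for these 2 fits.

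Among the genes of VLDL assembly, 8 of 18 fell at 2 μM FUCO. Of all genes tested, 9.71% were called lower and 10.8% higher, and these shares apply to each list below. SAR1A, a GTPase of the vesicles that carry new particles out of the endoplasmic reticulum, fell from 138 ± 4.95 to 94.2 ± 8.95 CPM (−0.55 ± 0.078, adjusted p = 2.56e-05). P4HB, which is protein disulphide isomerase and the partner subunit of MTTP, fell from 1417 ± 89.2 to 990 ± 108 CPM (−0.52 ± 0.082, adjusted p = 8.2e-05). In the HDL list 4 of 11 fell, with LIPG (endothelial lipase) at −0.72 ± 0.20 and LCAT, which esterifies cholesterol on HDL, at −0.51 ± 0.13. Of 20 other secreted proteins 12 fell, led by the fibrinogen chains FGB (−1.34 ± 0.11) and FGG (−1.01 ± 0.12). The median log2 fold change was −0.51 for these 20, −0.30 for the 10 genes and 0.01 for all genes. With APOA4 left out of the 10, the median was that of APOB (−0.27). Of 33 regulators, 7 fell and CEBPB alone rose (0.54 ± 0.13). ONECUT1 (−0.59 ± 0.077) and NR0B2, a corepressor of nuclear receptors (−0.53 ± 0.099), fell most.

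Of the comparisons with Model, that of RES had the most calls. RES lowered 8 of the 10 transcripts relative to Model, against 25.1% of all genes called lower. The exceptions were APOA2, which was not called, and the rarely counted APOA4. APOA1, APOA5, APOC3 and APOH fell to between 16.5% and 19.9% of Model, and these 4 met the DEG rule, as did 6.92% of all genes in this direction. APOB, MTTP, APOE and APOM fell to between 55.1% and 66.7%. Each of the 8 calls held without each library in turn.

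The VLDL pair fell together with RES. APOB was at 3717, 3492 and 3177 CPM, below all Model libraries, with a log2 fold change of −0.64 ± 0.078 (adjusted p = 2.75e-07). MTTP was at 104, 102 and 100.2 CPM (−0.78 ± 0.093, adjusted p = 2.09e-07), and its 3 libraries differed little from each other. The ratio of MTTP to APOB reads, which does not depend on scaling, was 2.79, 2.93 and 3.15 MTTP reads per 100 APOB reads in RES. It was 3.31, 3.06 and 3.36 in Model, which overlaps RES. The FUCO libraries lay between 2.91 and 3.55, while Con had 2.81, 2.11 and 2.16, below every other library except RES replicate 1.

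The HDL proteins separated from each other. APOA1 fell from 850, 876 and 856 CPM in Model to 161, 157 and 120 CPM in RES, 5.88-fold lower (−2.56 ± 0.14, adjusted p = 2.2e-13). APOA2 was at 5411, 5403 and 5663 CPM, above all Model libraries, with a log2 fold change of 0.20 ± 0.091 (adjusted p = 0.0693). It was called higher without normalization factors (0.34, adjusted p = 0.00306), a scaling that raises the median of all genes by 0.133 in this comparison. It was also called with 2 groups only (0.00319), without the filter (0.0201) and without FUCO-2 replicate 1 (0.0184) or 2 (0.0449), and over its alternatives the adjusted p ran from 0.00306 to 0.17. There were 18.2, 17.5 and 18.5 APOA1 reads per 100 APOA2 reads in Model and 2.98, 2.91 and 2.12 in RES. Across the 15 libraries without RES this ratio lay between 10.5 and 22.7, and both extremes were FUCO-2 libraries (22.7, 10.5 and 14.5). No test was run on the ratios. APOM was at 22.3, 28.3 and 26.5 CPM, below Model (−0.58 ± 0.14, adjusted p = 0.00146).

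**Figure D2:**
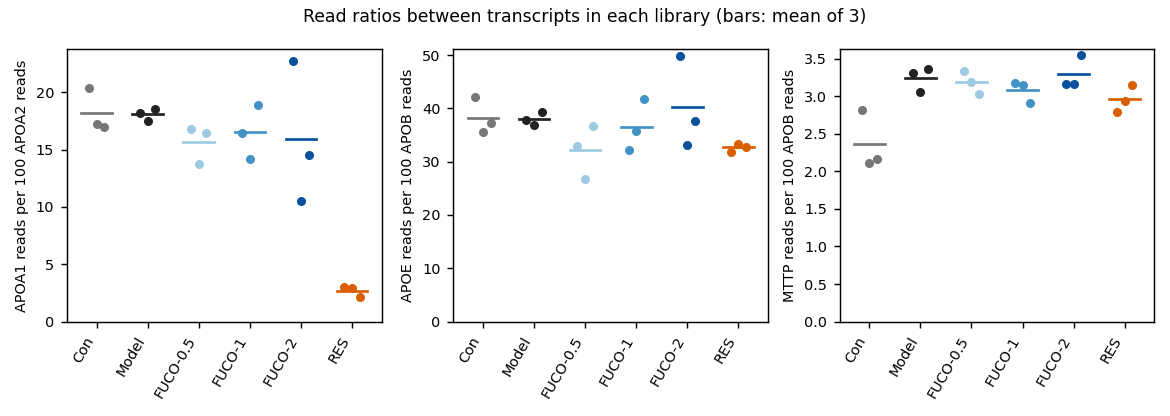
Ratios of read counts between pairs of transcripts in each library (APOA1 per 100 APOA2, APOE per 100 APOB and MTTP per 100 APOB), with points for libraries, bars for group means and axes from 0. APOA1 per 100 APOA2 reads is 2.12 to 2.98 in RES and 10.5 or more elsewhere, while MTTP per 100 APOB reads overlaps between RES and Model and APOE per 100 APOB reads is 31.9 to 33.4 in RES and 36.8 to 39.3 in Model.

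Among the exchangeable apolipoproteins, APOC3 and APOA5, which act in opposite directions on lipoprotein lipase, both fell. APOC3, the inhibitor, was at 26.3, 27.8 and 27.6 CPM in Model and at 6.34, 5.87 and 3.36 CPM in RES (−2.39 ± 0.20, adjusted p = 3.85e-10). APOA5, the activator, had 39, 18 and 32 counts in Model and 6, 5 and 6 in RES (−2.60 ± 0.45, adjusted p = 4.16e-05). Neither gene overlapped between the groups, but APOA5 rests on few reads, and its neighbour APOA4 had 6, 3 and 6 counts in RES. APOE was at 1187, 1165 and 1038 CPM (−0.86 ± 0.10, adjusted p = 1.5e-07). APOH fell from 1409, 1322 and 1461 to 286, 281 and 266 CPM, 5.03-fold lower (−2.33 ± 0.11, adjusted p = 5.93e-15).

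**Figure D3:**
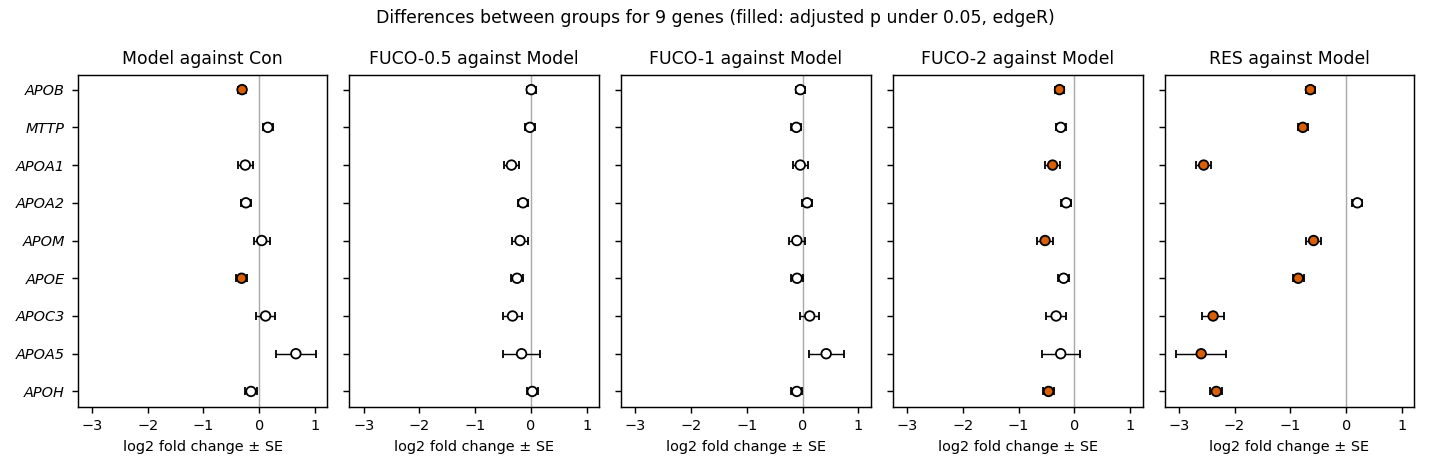
Log2 fold change ± SE of 9 transcripts (APOA4 is left out for its low counts) in 5 comparisons on a common axis, with filled points for an adjusted p under 0.05. RES places APOA1, APOA5, APOC3 and APOH between −2.33 and −2.60, APOA2 is at 0.20, and no difference between FFA or FUCO and its reference passes 1 in either direction.

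The called genes of the chromosome 11 cluster all fell with RES, while on chromosome 19 APOE and APOC2 fell and APOC1 rose. On chromosome 11 these were APOA1, APOC3 and APOA5, and the rarely counted APOA4 was not called. In the chromosome 19 cluster, which spans 43.8 kb from APOE to APOC2, APOE fell while APOC1, an inhibitor of remnant uptake, rose from 193 ± 16.0 CPM in Model to 240 ± 23.5 CPM in RES (0.32 ± 0.087, adjusted p = 0.00399). APOC2, the cofactor of lipoprotein lipase, fell from 7.33 ± 0.328 to 4.68 ± 1.30 CPM (−0.65 ± 0.23, adjusted p = 0.0197). It overlaps a readthrough transcript with APOC4, and APOC4 itself was too low to be tested. At 2 μM FUCO, APOC1 fell (−0.33 ± 0.087, adjusted p = 0.00881) and APOE was not called, as given above. With FFA, APOC1 fell (−0.32 ± 0.087, adjusted p = 0.0122) as did APOE.

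The other lists placed the 10 genes beside those that act with them. In the HDL list 9 of 11 fell with RES and 2 rose, with LIPC, the hepatic lipase, from 97.9 ± 6.76 to 17.7 ± 1.30 CPM (−2.46 ± 0.10, adjusted p = 1.5e-15). ANGPTL4 rose from 2.78 ± 0.0476 to 8.42 ± 0.978 CPM (1.60 ± 0.22, adjusted p = 1.84e-06). In VLDL assembly 4 of 18 rose, against 24.4% of all genes, and 7 fell, against 25.1%, with a median of −0.04. AADAC fell to 14.4% of Model (−2.80 ± 0.20, adjusted p = 2.63e-11) and SMLR1 to 47.5%, while SAR1B, which carries APOB particles out of the endoplasmic reticulum (0.47 ± 0.087), and KLHL12 (0.46 ± 0.080) rose. Among 12 receptors and their regulators 3 rose and 4 fell. VLDLR rose from 11.3 ± 1.26 to 26.0 ± 1.74 CPM (1.20 ± 0.11, adjusted p = 1.67e-09), and MYLIP, a ligase that directs LDL receptors to degradation, fell (−1.21 ± 0.19, adjusted p = 8.43e-06). CLU, or apolipoprotein J, fell from 2033 ± 39.9 to 643 ± 52.9 CPM (−1.66 ± 0.079) and APOL6 rose (1.13 ± 0.15).

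Of the 33 regulators, 21 fell with RES, against 25.1% of all genes, and 4 rose, against 24.4%. NR1H4, the bile acid receptor, fell from 22.9 ± 1.81 to 5.93 ± 0.665 CPM (−1.96 ± 0.11, adjusted p = 6.82e-13). CREB3L3, which had risen with FFA, fell from 76.1 ± 9.36 to 20.9 ± 1.85 CPM (−1.86 ± 0.16, adjusted p = 1.16e-09). PPARGC1A (0.97 ± 0.13), which had fallen with FFA, and CEBPB (0.86 ± 0.13) rose. THRB, which encodes the receptor that Resmetirom binds, had a log2 fold change of 0.21 ± 0.093 (adjusted p = 0.0639), THRA one of −0.49 ± 0.10 (adjusted p = 0.000388) and HNF4A, a regulator of many apolipoprotein genes, one of −0.40 ± 0.10 (adjusted p = 0.00219). The fall was not limited to lipoproteins. Of 20 other secreted hepatocyte proteins 16 fell and 3 rose, with PLG (plasminogen) at −2.69 ± 0.53. Their median was −1.41, against −0.97 for the 10 genes and 0.002 for all genes. The median of the 10 includes the rarely counted APOA4, and without it the median was that of APOE (−0.86). FGA (1.70 ± 0.11) and FGG (1.24 ± 0.12), both fibrinogen chains, rose. The part of this wider fall, or of the lower hepatocyte marker sum, in the fall of the apolipoproteins was not tested.

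**Figure D4:**
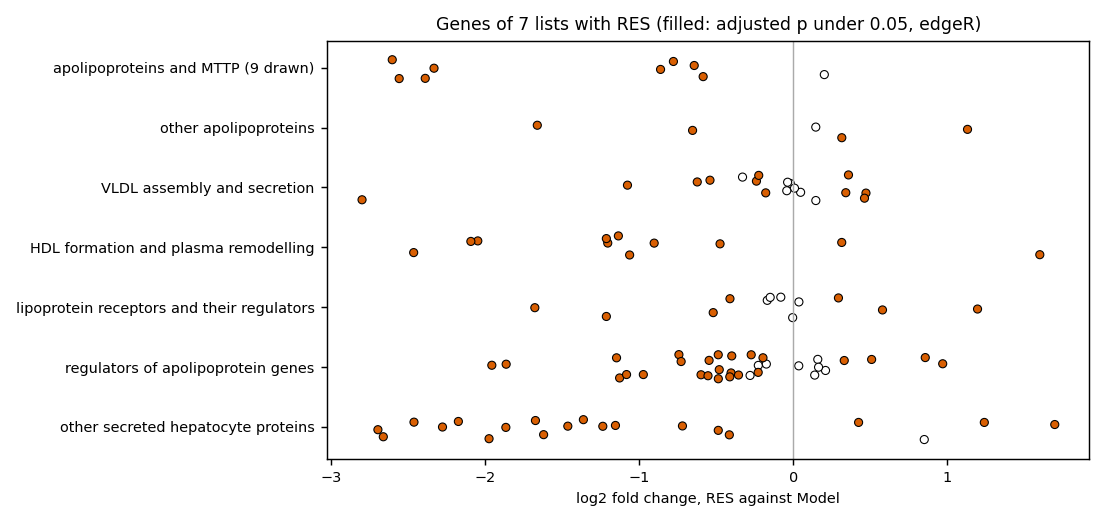
Log2 fold change of RES against Model for the tested genes of 7 lists, with 1 point per gene, filled at an adjusted p under 0.05 and spread vertically only for legibility. The 9 apolipoprotein and MTTP points drawn have 8 to the left of 0, most other secreted hepatocyte proteins lie left of 0 as well, and the VLDL assembly list spreads on both sides.

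RES and 2 μM FUCO were also compared directly, although their doses cannot be matched. Relative to FUCO-2, RES had 7 of the 10 lower, against 26.0% of all genes, and APOA2 higher (0.35 ± 0.091, adjusted p = 0.00278), against 22.5% of all genes higher. APOA1 (−2.16 ± 0.14), APOA5 (−2.36 ± 0.47), APOC3 (−2.06 ± 0.20) and APOH (−1.87 ± 0.10) differed most, and APOB (−0.37 ± 0.078), MTTP (−0.53 ± 0.093) and APOE (−0.67 ± 0.10) less. APOM did not pass (−0.06 ± 0.15, adjusted p = 0.765), with overlapping libraries in the 2 treatments.

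Set against Con, APOB and APOE were lower at every dose of FUCO with FFA. FUCO-0.5 had 4 of the 10 lower (APOB, APOE, APOA1 and APOA2), against 11.4% of all genes. FUCO-1 had APOB and APOE lower, against 10.1%, and APOA5 higher (1.08 ± 0.35, adjusted p = 0.0301), against 8.22%. The APOA5 call was lost without Con replicate 2 or 3 or FUCO-1 replicate 1 or 3 (adjusted p from 0.0576 to 0.166). FUCO-2 had 6 lower (APOB, APOE, APOA1, APOA2, APOH and APOM), against 11.9%, with APOB at 67.2% of Con (−0.57 ± 0.078, adjusted p = 6.81e-06). The APOM call was lost without Con replicate 1, FUCO-2 replicate 1 or FUCO-2 replicate 2 (adjusted p from 0.0762 to 0.0973), without normalization factors (0.0555) and with 2 groups only (0.0653), and its range was 3.47e-05 to 0.0973. That of APOB was lost at 0.5 μM without FUCO-0.5 replicate 3 (adjusted p = 0.0509, with a range of 0.000199 to 0.0509). Without Con replicate 1, MTTP, APOA5 and APOA4 were called higher at 0.5 μM and the count rose from 4 to 7, with no share of all genes recorded for that fit. At 1 μM APOA1 was called lower without FUCO-1 replicate 3 (0.0366, range 0.00347 to 0.376), and APOH without FUCO-0.5 replicate 2 or 3 (0.0393 and 0.0372, range 0.0145 to 0.222). With RES, 8 were lower than in Con, against 28.5% of all genes, and APOA2 was not called (−0.04 ± 0.091, adjusted p = 0.754, and 0.16 without normalization factors).

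As a description of co-variation over the 18 libraries, which share their normalization and a strong separation of RES from the rest, log2 CPM of APOA1 correlated with that of APOC3 at r = 0.97, with APOH at 0.958 and with APOA2 at −0.268. Over the 15 libraries without RES these values were 0.68, 0.456 and 0.505, while APOA1 with APOE remained at 0.93 (0.935 over 18). APOB with APOH was at 0.899 and then 0.824, and APOB with MTTP at 0.782 and then 0.267. The genes outside the 10 whose pattern was most like that of APOB, the transcript with the highest mean CPM over all 18 libraries (APOA2 exceeded it in all RES libraries and in replicates 2 and 3 of FUCO-1 and FUCO-2), were KLF3 (r = 0.972), ZNF789 (0.97) and CAPRIN2 (0.966) among 9630 candidates.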

How the data were processed

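Hep3B libraries were assigned to 6 groups of 3 by their titles. RNA was enriched for poly(A). The authors used fastp for trimming, STAR for alignment to GRCh38.p14 and featureCounts for counting, and deposited raw counts per gene symbol. Use of the strand and of reads with several matches is not given in the sources used here. Of 36684 symbols, 14557 passed edgeR's filterByExpr (minimum count 10, minimum total 15), and these hold 99.94% of all counts. R 4.3.3 and edgeR 4.0.16 were used (TMM, quasi-likelihood F test, 1 term per group, all 18 libraries, prior count 0.125), with Benjamini-Hochberg adjustment over the 14557 genes and a threshold of 0.05. CPM were scaled by TMM. DESeq2, the tool of the paper's methods, was an alternative (version 1.42.0 here), as were other normalizations and filters, a fit of 2 groups, a fit without RES, a replicate block and leaving out each library. The fits were tested on simulated data.

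The genes and lists were chosen with earlier results of these data known. Genes outside the 10 were named by rule: APOC1, APOC2 and APOC4, and, from each list, up to 2 called genes with the largest rise and up to 2 with the largest fall in each comparison of FFA with Con or of a treatment with the model, at a mean of at least 1 CPM. Some of these are given only in the counts of their list. THRB, THRA and HNF4A were named after their values were seen. Transcript lengths came from GENCODE v44, which differs from the v46 named in the methods, and gene positions and upstream windows from RefSeq on GRCh38.p14. No comparison had every pair of same-numbered libraries deviating together at r over 0.1 (r from −0.164 to 0.155 over 11 comparisons). The numbers were therefore not used to pair libraries. FUCO-2 against Model came closest, with r of 0.126, 0.0968 and 0.0935.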

Additional observations from a re-analysis of the deposited data

Results flagged for a closer look

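APOH was flagged because the effect of FUCO differed between doses in a direct test. Its level was lower at 2 than at 1 μM, with a log2 fold change of −0.36 (edgeR, adjusted p = 0.0313) and no overlap between the 3 libraries of each dose. The call was lost without any one FUCO-1 library or FUCO-2 replicate 1 or 2 (adjusted p from 0.064 to 0.123). Groups of 3 libraries are too small for a test of single outlying samples, so none was made.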

How the results depend on the processing

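The counts of called genes and the differences of the 10 genes other than APOA4 were recomputed under the alternatives that apply to them. The fit without RES gives no value for comparisons with RES. Of the 1159 recomputed values of the 44 called differences, 1127 kept their direction and their side of the threshold, and 0 changed direction. Many of these refits left out a library of neither group compared, which moves a fold change little. The total therefore says little about single calls. The calls of APOE for Model against Con and APOA1 for FUCO-2 against Model were lost without most single libraries of their groups. The same held for APOH in FUCO-2 against FUCO-1. The study's DEG rule left 4 of the 10 genes for RES against Model, 5 for RES against Con, 4 for RES against FUCO-2, 1 for FUCO-1 against Con and 0 for Model against Con, FUCO-2 against Model, FUCO-0.5 against Con, FUCO-2 against Con and FUCO-2 against FUCO-1. Without a filter, the called counts were 4 for Model against Con, 1 for FUCO-0.5 against Model, 6 for FUCO-2 against Model (4 as reported), 5 for FUCO-1 against Con and 6 for FUCO-2 against FUCO-1. With 2 groups only, they were 4 for Model against Con and 1 for FUCO-0.5 against Model. DESeq2 gave 2 for FUCO-2 against FUCO-1, and no normalization factors gave 1 for Model against Con. The cause of these changes was not tested. Leaving out 1 library gave 1 to 4 genes for Model against Con, 2 to 5 for FUCO-2 against Model, 3 to 7 for FUCO-0.5 against Con and 0 to 2 for FUCO-2 against FUCO-1. The share of all genes called was not recorded for the alternative fits. Whether a changed count is particular to the 10 genes therefore cannot be told.

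The titles number the replicates but do not say whether equal numbers mark paired cultures. With a replicate block, 5 of the 10 were called for FUCO-2 against Model, where MTTP was added (adjusted p = 0.0485, with a range of 0.0292 to 0.182 over the alternatives), and the other 10 counts of called genes were as reported.

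No normalization factors moved the median of all genes by 0.133 for RES against Model, 0.192 for RES against Con and 0.111 for FUCO-2 against Con, and by under 0.1 elsewhere. Differences that were not called could change direction. Without normalization factors, MTTP was at 0.014 for FUCO-0.5 against Model and 0.019 for FUCO-2 against Con, APOM at 0.023 for FUCO-1 against Con and 0.023 for RES against FUCO-2, and APOA2 at 0.16 for RES against Con. Leaving out 1 library moved log2 fold changes across 0 as follows. For Model against Con, APOC3 ran from −0.056 to 0.29 and APOM from −0.062 to 0.18. For FUCO-0.5 against Model, APOA5 ran from −0.42 to 0.079, APOB from −0.046 to 0.072, APOH from −0.11 to 0.15 and MTTP from −0.070 to 0.081. For FUCO-1 against Model, APOA1 ran from −0.19 to 0.036 and APOC3 from −0.015 to 0.27, and for FUCO-2 against Model, APOA5 from −0.49 to 0.041. Against Con, APOH ran from −0.26 to 0.0047 at 0.5 μM, APOM from −0.16 to 0.080 and MTTP from −0.027 to 0.17 at 1 μM, and MTTP from −0.16 to 0.038 at 2 μM. For RES against FUCO-2, APOM ran from −0.16 to 0.15. With a minimum of 10 counts in every library, APOA4 and APOA5 were not tested. The counts of APOA4 and APOA5 limit what can be seen in those genes.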
